A study of Mus musculus with 15 samples.

Results

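Gap junction genes and their relatives were followed in mouse retinal pigment epithelium (RPE), the sheet of pigmented cells that supports the photoreceptors. The set holds 6 of the 46078 genes in the deposited table, taken by symbol. They are Gja1, Gjc1, Gja4, Gjb2, Gjb6 and Panx1, and the 17 other connexin and pannexin genes served for comparison. Gja1 was chosen by its counts, which were lower in Mertk KO than in Mertk WT, and as a gene with such a fall that does not lie on chromosome 2, so its values in those libraries describe how it was selected and carry no test. The other 5 members were taken as genes of the same channel families.

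RNA came from RPE of female mice at postnatal day 14, collected from 2 hours after light onset. The 15 libraries form 4 groups by genotype label: 4 of Mertk KO, 4 of Mertk WT, 3 of Bai1 Tg pos and 4 of Bai1 Tg neg. Both Bai1 groups carry wild-type Mertk, and Bai1 is the older name of Adgrb1. Mertk and Bai1 are receptors in the uptake of cell material that exposes phosphatidylserine, and the Mertk comparison asks what differs between RPE labelled Mertk KO and Mertk WT. All groups share 1 strain label, a mixture of c57Bl/6J with B6;129-Mertktm1Grl/J. The sources used here name neither the promoter of the Bai1 transgene nor the animals behind each library, so each p-value refers to variation among the libraries at hand, part of which may be technical.

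Connexins assemble into hexameric hemichannels, and hemichannels of neighbouring cells dock to form gap junctions that pass ions, second messengers and small metabolites. Gja1 encodes connexin Cx43, the connexin best known from RPE, where it couples the cells of the sheet and its hemichannels can release ATP toward the retina. Gjc1 encodes Cx45, Gja4 encodes Cx37, a connexin known from endothelium, and Gjb2 and Gjb6 encode Cx26 and Cx30, which work together in the inner ear. Panx1 encodes pannexin 1, a related channel that releases ATP across the plasma membrane of single cells.

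Total counts ran from 9591129 to 20024507 per library. Rpe65, the visual-cycle isomerase that defines RPE, lay between 4175 and 6667 CPM (the count scaled to a common library size). Mertk counts were lower in Mertk KO, with 178 ± 18.9 CPM (SD, n = 4), than in Mertk WT, with 246 ± 13 CPM (n = 4), and were not lost. Adgrb1 lay between 166 and 169.9 CPM in the 3 Bai1 Tg pos libraries. Against its label, the library called Bai1 Tg neg 4 also had 143.5 CPM, while Bai1 Tg neg 1 to 3 had at most 0.142 CPM. Fold changes of the members in the Bai1 comparison are therefore given with and without that library.

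Gja1 (ENSMUSG00000050953) lies on chromosome 10, from 56377300 to 56390419 on the plus strand of GRCm38, with 3105 exon bases. Gjc1 (ENSMUSG00000034520) lies on chromosome 11, from 102799579 to 102819700 on the minus strand. Gja4 (ENSMUSG00000050234) lies on chromosome 4, from 127311421 to 127314039 on the minus strand. Gjb2 (ENSMUSG00000046352) and Gjb6 (ENSMUSG00000040055) are near each other on the minus strand of chromosome 14, from 57098600 to 57104702 and from 57123303 to 57133611. Panx1 (ENSMUSG00000031934) lies on chromosome 9, from 15005161 to 15045478 on the minus strand. None of the 6 shares exon bases with another gene of the annotation, and 0 of 6 had a transcript of another gene that matched at 95% identity or more over 150 bases or more, so their counts were not open to splitting between copies of that kind.

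The promoters of the leading connexin and of a low one are shown because the 2 genes differ in level by a large factor in the same libraries. Promoter windows of 250 bases before the annotated start were available for 5 of the 6 members, from RefSeq on GRCm38.p6. Gja1 (chr10:56377050-56377299, plus strand) and Gjb2 (chr14:57104703-57104952, minus strand) read as follows, 5′ to 3′, with matches to the searched motifs in capitals.
Gja1: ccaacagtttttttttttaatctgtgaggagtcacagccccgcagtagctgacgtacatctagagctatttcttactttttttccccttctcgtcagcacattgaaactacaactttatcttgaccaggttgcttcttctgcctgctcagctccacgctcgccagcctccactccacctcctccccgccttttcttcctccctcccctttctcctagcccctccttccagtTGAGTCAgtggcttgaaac
Gjb2: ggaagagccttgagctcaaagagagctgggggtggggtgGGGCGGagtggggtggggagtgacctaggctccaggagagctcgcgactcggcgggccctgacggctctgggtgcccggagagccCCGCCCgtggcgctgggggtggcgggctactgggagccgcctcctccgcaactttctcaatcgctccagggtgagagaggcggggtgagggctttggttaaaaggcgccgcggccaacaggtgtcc
The capitals in Gja1 mark its 1 match to the AP-1 motif TGANTCA, which begins 19 bases before the start. Of 32851 mouse promoter windows of the same length, 6.75% hold a match. The Gjb2 window has 2 matches to the GC box GGGCGG, beginning 211 and 126 bases before the start, as do 32.7% of windows with at least 1. The Gja1 window has no GC box. Neither window holds TATAAA (12.4% of windows), the CRE motif TGACGTCA (1.55%) or the E-box CACGTG (6.02%), searched on both strands. No match to one motif overlapped a match to another in these windows, and the matches describe sequence and not binding.

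The 6 genes spanned several orders of magnitude. On the scale of CPM per kilobase of exon, which allows levels of different genes to be compared, the mean over 15 libraries was 339.9 for Gja1. It was 2.57 for Panx1, 1.90 for Gjc1 and 1.00 for Gjb2. Gja4 was at 0.061 and Gjb6 at 0.0127. Gja1 ranked 82nd of 46078 genes on this scale in Mertk WT, 83rd in Bai1 Tg pos, 93rd in Bai1 Tg neg and 140th in Mertk KO. It supplied between 96.3% and 98.4% of the summed connexin and pannexin level per length in every library.

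The order below Gja1 was not resolved at every step. Panx1 ranged over libraries from 1.82 to 3.46 CPM per kilobase and Gjc1 from 1.37 to 2.37, so these neighbours overlapped. Gjb1, which encodes Cx32 and is not a member, had a mean of 1.42 and a range from 0.469 to 2.71, which overlapped both Gjc1 and Gjb2. Gjb2 ranged from 0.122 to 1.41. Gja1, at 243 or more in every library, overlapped no other gene of the family.

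**Figure D1:**
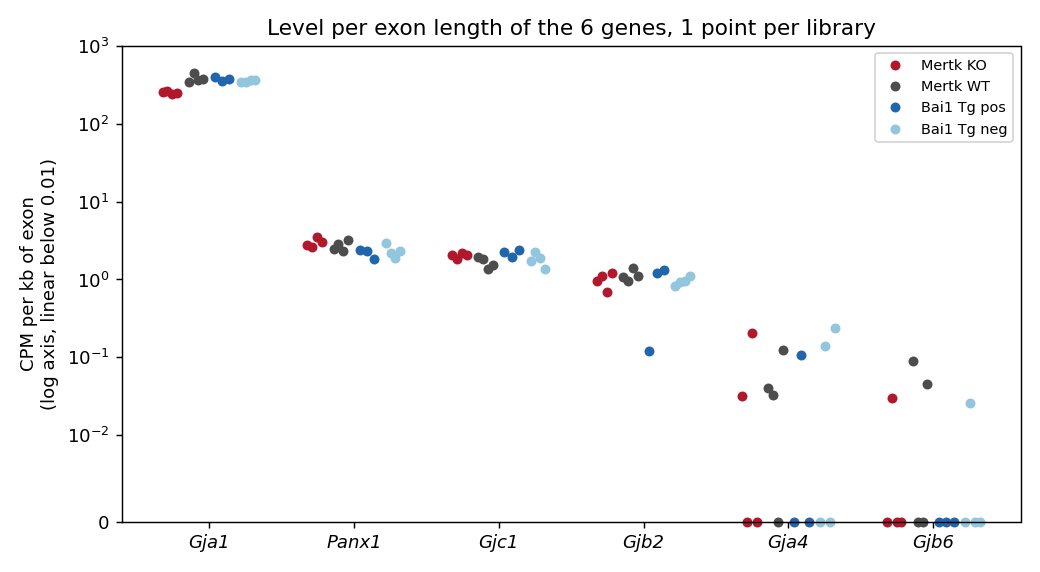
Level of each of the 6 genes in CPM per kilobase of exon, 1 point per library (n = 15), on an axis that is logarithmic above 0.01 and linear below it. Gja1 lies at 243 or more in every library, Panx1, Gjc1 and Gjb2 lie near 1 to 3 except for a single low Gjb2 point, and Gja4 and Gjb6 have points at 0.

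Gja1 was lower in Mertk KO RPE than in every other library. Its level was 799, 812, 756 and 777 CPM in Mertk KO 1 to 4. In Mertk WT 1 to 4 it was 1054, 1388, 1146 and 1179 CPM. The groups did not overlap: the highest Mertk KO library lay below the lowest Mertk WT library. The Bai1 Tg pos libraries 1 to 3 had 1238, 1112 and 1173 CPM. The Bai1 Tg neg libraries 1 to 4 had 1056, 1074, 1140 and 1128 CPM, so the library whose Adgrb1 level goes against its label did not stand apart for Gja1. The 4 Mertk KO libraries spanned 756 to 812 CPM and the 11 others spanned 1054 to 1388 CPM.

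The mean of the 4 Mertk KO libraries, 786 ± 24.8 CPM (SD), was 34.1% lower than that of the 4 Mertk WT libraries, 1192 ± 141 CPM. Against Bai1 Tg neg (1099 ± 40.6 CPM, n = 4) it was 28.5% lower, and against Bai1 Tg pos (1174 ± 62.6 CPM, n = 3) it was 33.1% lower. The fitted log2 fold change between Mertk KO and Mertk WT was -0.61 (SE 0.083), given without a test since this difference chose the gene. Each library held between 10917 and 25466 Gja1 counts, so counting error was small beside the spread between libraries. Mertk WT was the most variable group, through its library 2 at 1388 CPM. Without that library the log2 fold change was -0.53, and without Mertk WT 1 it was -0.65, the ends of the range when single libraries were left out.

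The labels give each library a first tag number, which the sources used here do not explain. Within tag 17 the mean Gja1 level was 789 CPM in 3 Mertk KO libraries and 1196 CPM in 3 Mertk WT libraries. Within tag 21 it was 777 CPM in 1 Mertk KO library and 1179 CPM in 1 Mertk WT library. The difference was about as large within tag 17 as over all 8 libraries. These libraries chose Gja1, so this is a description and no test. All Bai1 libraries carry tag 12, so tag and set of libraries cannot be told apart between the Mertk and Bai1 libraries.

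**Figure D2:**
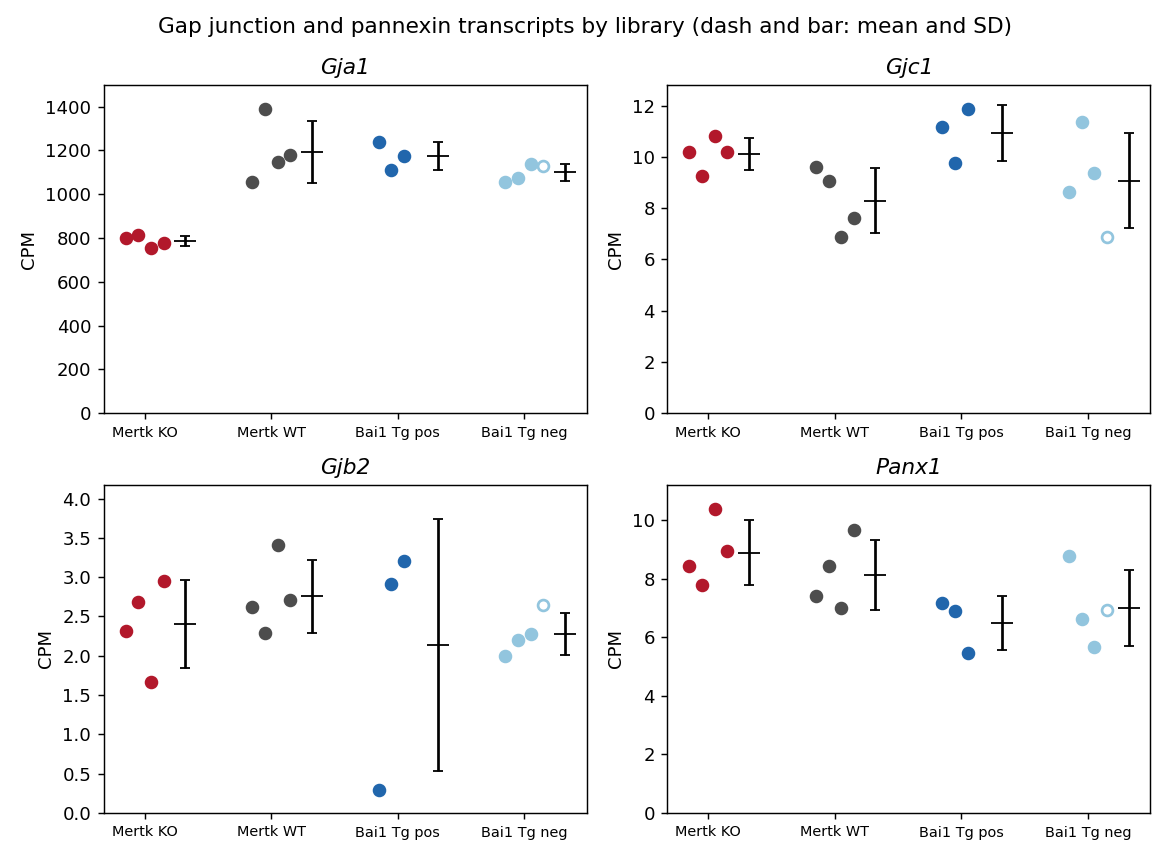
CPM of Gja1, Gjc1, Gjb2 and Panx1 in each library by group (points, in replicate order), with mean and SD beside them. An open circle marks Bai1 Tg neg 4, with an Adgrb1 level that goes against its label. The Mertk KO points of Gja1 lie between 756 and 812 CPM, below all 11 other libraries. For the other 3 genes, Mertk KO overlaps Mertk WT and Bai1 Tg pos overlaps Bai1 Tg neg. Between the Mertk and Bai1 libraries, which also differ in first tag number, some groups separate. The pairs below were named after their values were seen and were not tested. The share over all genes was not taken for them, so nothing is read from them. Panx1 has 7.79 to 10.4 CPM in Mertk KO and 5.45 to 7.16 CPM in Bai1 Tg pos. Gjc1 has 6.88 to 9.62 CPM in Mertk WT and 9.75 to 11.9 CPM in Bai1 Tg pos.

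In bulk RNA, fewer cells of a type and less RNA per cell cannot be told apart. The summed level of 8 RPE markers overlapped between Mertk KO, with 37394 to 41963 CPM, and Mertk WT, with 39928 to 45451 CPM. Ttr, at a mean of 24271 CPM over the 15 libraries, supplied most of this sum. Of the 7 markers tested between these groups 3 had a log2 fold change above 0 and 4 below, and 0 passed by edgeR. Lrat, named after its values were seen, was lowest at -0.28 (adjusted p = 0.638), and Rpe65 was at -0.24 (adjusted p = 0.893). Best1, also named afterwards, reached at most 1.81 CPM and was not tested. Levels of Gja1 relative to RPE markers reuse the values that chose the gene and are given as a description. Per 1000 CPM of that sum, Gja1 had 19.2 to 21.4 CPM in Mertk KO and 25.5 to 30.5 CPM in Mertk WT. The same measure was 25.8 to 30.2 CPM in Bai1 Tg pos and 26.01 to 27.4 CPM in Bai1 Tg neg. Per 1000 CPM of Rpe65 alone, it was 167 to 181 CPM in Mertk KO and 208 to 247 CPM in Mertk WT. The part of the RPE share in the Gja1 difference was not tested.

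Cx43 is also known from glia, endothelium, smooth muscle and fibroblasts, and markers of these cells were summed in each group. The 10 glial markers summed to 17573 to 21501 CPM in Mertk KO and 17948 to 20258 CPM in Mertk WT. Most of that was Clu and Apoe, with means over libraries of 10001 and 5852 CPM. The glial markers Gfap, Aqp4, S100b and Kcnj10 each stayed below 1 CPM in every library, with highest values of 0.961, 0.785, 0.52 and 0.568 CPM. Other markers of the list, named after their values were seen, were higher in every library. Slc1a3 lay at 4.02 to 7.80 CPM, Aldh1l1 at 46.4 to 81.1 CPM and Glul at 2326 to 2851 CPM. Vim, of the same list and named after its values were seen, lay without overlap at 219 to 288 CPM in Mertk KO and 141 to 209.9 CPM in Mertk WT, or 0.48 on the log2 scale, which did not pass (edgeR adjusted p = 0.426). Vim was the 1 of 6 tested glial markers whose Mertk groups did not overlap, beside 3.52% of all 13447 tested genes. Glul was at -0.14 (edgeR adjusted p = 0.893), with overlapping groups. The 8 endothelial markers were low, with sums of 7.02 to 10.9 CPM in Mertk KO and 12.3 to 20.6 CPM in Mertk WT, which did not overlap. Egfl7 and Kdr, with means over libraries of 3.05 and 8.62 CPM, supplied most of these sums. They were the 2 that were tested, and 0 of 2 had Mertk groups that did not overlap, beside 3.52% of all 13447 tested genes. Their log2 fold changes were -0.74 and -0.62, beside -0.61 for Gja1. By edgeR both had an unadjusted p under 0.05, as did 750 of 13447 tested genes, and 0 passed (lowest adjusted p = 0.545). No endothelial marker was at 0 throughout either Mertk group. The 8 smooth muscle and pericyte markers summed to 300.4 to 363 CPM in Mertk KO and 292 to 327 CPM in Mertk WT. The 8 fibroblast markers summed to 114 to 148 CPM and 102 to 180.1 CPM in the same order. Acta2 and Cspg4, with means over libraries of 205 and 73.2 CPM, supplied most of the smooth muscle and pericyte sum. Ogn, with a mean of 121 CPM, supplied most of the fibroblast sum, and Col1a2 came next at 4.82 CPM. The part of these cells in the Gja1 difference was not tested.

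The sums of rod, melanocyte, ciliary and macrophage markers overlapped between the Mertk groups, and single markers did not always. The 12 rod markers summed to 943 to 1555 CPM in Mertk KO and 866 to 3585 CPM in Mertk WT, and were lower in both Bai1 groups, at 260.2 to 774 CPM in Bai1 Tg pos and 200.1 to 460.1 CPM in Bai1 Tg neg. Between Mertk KO and Mertk WT 11 of the 12 rod markers had a log2 fold change below 0, with a median of -0.68, and 0 passed by edgeR, adjusted or at an unadjusted p of 0.05. The 6 melanocyte and neural crest markers ran from 441 to 509.7 CPM in Mertk KO and from 345 to 507 CPM in Mertk WT. The 8 ciliary epithelium markers, mostly Atp1b2 with a mean over libraries of 783 CPM, ran from 829 to 884 CPM and from 867 to 965 CPM. Among these markers, and named after their values were seen, 2 had Mertk groups that did not overlap. They were 1 of 6 tested ciliary and 1 of 5 tested melanocyte markers, with 0 of 12 rod and 0 of 2 macrophage markers. Over all 13447 tested genes the share was 3.52%. Slc4a4, a bicarbonate transporter of the ciliary list, was at 30.5 to 39.0 CPM in Mertk KO and 44.3 to 65.1 CPM in Mertk WT, or -0.62 on the log2 scale beside -0.61 for Gja1, and did not pass (edgeR adjusted p = 0.0834). Mlana, a pigment cell gene, was at 126 to 159 CPM and 107 to 125 CPM, or 0.28 (adjusted p = 0.522). The 8 macrophage markers ran from 666 to 743 CPM in Mertk KO, with Aif1 and Ptprc at 0 throughout, and from 637 to 704 CPM in Mertk WT. Csf1r made up most of the macrophage sum, with a mean over libraries of 657 CPM. The part of these markers in the Gja1 difference was not tested either.

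The Bai1 comparison played no part in choosing Gja1, and there the gene was tested. Bai1 Tg pos over Bai1 Tg neg gave a log2 fold change of 0.10 (SE 0.063, 95% interval -0.036 to 0.235), with an adjusted p of 0.958 by edgeR's quasi-likelihood test with Benjamini-Hochberg adjustment. Leaving out Bai1 Tg neg 4 gave 0.11 (adjusted p = 0.988). The groups overlapped. The interval is from the fit that keeps Bai1 Tg neg 4, and it is not set against the Mertk difference, which chose the gene. Between Mertk WT and Bai1 Tg neg, both with wild-type Mertk and no transgene by label, the log2 difference in Gja1 was 0.12 (SE 0.082), given as a description because Mertk WT entered the choice of the gene. It ran from 0.036 without Mertk WT 2 to 0.17 without Mertk WT 1.

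Gjc1, the connexin with the highest mean level per length over the 15 libraries after Gja1, did not pass the test in any comparison. It had 10.2, 9.27, 10.8 and 10.2 CPM in Mertk KO 1 to 4 and 9.62, 9.05, 6.88 and 7.60 CPM in Mertk WT 1 to 4. The groups overlapped, since Mertk WT 1 lay above Mertk KO 2. The log2 fold change was 0.28 (SE 0.155, 95% interval -0.055 to 0.616, edgeR adjusted p = 0.905), a fitted sign opposite to that of Gja1. In Bai1 Tg pos 1 to 3 Gjc1 had 11.2, 9.75 and 11.9 CPM, and in Bai1 Tg neg 1 to 4 it had 8.63, 11.4, 9.37 and 6.89 CPM. That gave 0.28 on the log2 scale (SE 0.199, edgeR adjusted p = 0.958), and 0.16 when Bai1 Tg neg 4 was left out, which had the lowest Gjc1 level of the 7.

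Gjb2 was low in all libraries, and 1 of them stood apart. Mertk KO 1 to 4 had 2.31, 2.69, 1.66 and 2.95 CPM and Mertk WT 1 to 4 had 2.62, 2.29, 3.40 and 2.71 CPM, overlapping groups with a log2 fold change of -0.20 (SE 0.284, 95% interval -0.815 to 0.413, edgeR adjusted p = 0.934). It was -0.061 without Mertk KO 3, -0.079 without Mertk WT 3 and -0.31 without Mertk KO 4. Bai1 Tg neg 1 to 4 had 2.00, 2.20, 2.27 and 2.65 CPM. Bai1 Tg pos 1 had 0.294 CPM, which is 3 counts, while Bai1 Tg pos 2 and 3 had 2.91 and 3.20 CPM. The log2 fold change in the Bai1 comparison was -0.06 (SE 0.548, 95% interval -1.23 to 1.11, adjusted p = 0.998). Without Bai1 Tg pos 1 the direction turned, to 0.42, and without Bai1 Tg neg 4 it was 0.022. Without both libraries it was 0.50, an alternative chosen after seeing the data, so these libraries gave no settled direction.

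Panx1, the ATP-releasing channel, had the highest mean level per length after Gja1. Mertk KO 1 to 4 had 8.43, 7.79, 10.4 and 8.96 CPM and Mertk WT 1 to 4 had 7.40, 8.45, 7.01 and 9.68 CPM. The groups overlapped, with a log2 fold change of 0.13 (SE 0.167, 95% interval -0.233 to 0.489, edgeR adjusted p = 0.927). It was 0.046 without Mertk KO 3, 0.064 without Mertk WT 3 and 0.22 without Mertk WT 4. Bai1 Tg pos 1 to 3 had 7.16, 6.90 and 5.45 CPM and Bai1 Tg neg 1 to 4 had 8.78, 6.61, 5.68 and 6.94 CPM, or -0.11 on the log2 scale (SE 0.23, edgeR adjusted p = 0.986). The direction turned without Bai1 Tg neg 1 (0.022) and without Bai1 Tg pos 3 (0.011), and the value was -0.11 without Bai1 Tg neg 4.

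Gja4 and Gjb6 were too low to test in any comparison. Gja4 had 25 counts in all, spread over 8 of 15 libraries, with at most 8 in 1 library, the one labelled Bai1 Tg neg 4. Gjb6 had 6 counts in 4 libraries, with at most 3, in Mertk WT 1. In Bai1 Tg pos Gjb6 had 0 counts. A count of 3 corresponds to between 0.15 and 0.312 CPM at these depths, so differences between groups in these genes were not detectable.

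Of the 6 members, 4 passed the filter on low counts in every comparison. In the Mertk comparison 0.223% of 13447 tested genes passed the threshold of an adjusted p of 0.05, and 3.52% had groups that did not overlap. Gja1, chosen for its fall, was the only member whose Mertk groups did not overlap, and nothing is read from that. Of the other 5 members 3 were tested and 0 passed by edgeR, DESeq2 or limma-voom. At an unadjusted p of 0.05 edgeR and DESeq2 gave 0 of these and limma-voom gave 1, Gjc1. Over all 13447 genes that cut was met by 750 with edgeR, 754 with DESeq2 and 834 with limma-voom. In the Bai1 comparison 0.0144% of 13855 tested genes passed, 2 genes in all, and 6.2% had groups that did not overlap. Of the 6 members 4 were tested there, 0 passed by any of the 3 tools, adjusted or not, and no member had groups that did not overlap.

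Between Mertk WT and Bai1 Tg neg 0.431% of 13459 genes passed. The log2 difference was -0.12 for Gjc1 (edgeR adjusted p = 0.936), 0.27 for Gjb2 (adjusted p = 0.880) and 0.21 for Panx1 (adjusted p = 0.856). None of the 3 passed by edgeR, DESeq2 or limma-voom, and none had an unadjusted p under 0.05 by these. Single libraries moved these values: Gjc1 ran from -0.24 without Bai1 Tg neg 4 to 0.0023 without Bai1 Tg neg 2, Gjb2 from 0.14 without Mertk WT 3 to 0.35 without Mertk WT 2, and Panx1 from 0.12 without Mertk WT 4 to 0.35 without Bai1 Tg neg 1. The difference between the Mertk and the Bai1 effect, tested over all 15 libraries, passed for 0.103% of 14520 genes. It was 0.01 for Gjc1 (edgeR adjusted p = 0.999), -0.14 for Gjb2 (adjusted p = 0.977) and 0.24 for Panx1 (adjusted p = 0.882). Without Bai1 Tg neg 4, an alternative chosen after seeing the data, it was 0.12, -0.23 and 0.24 in the same order, and none passed.

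**Figure D3:**
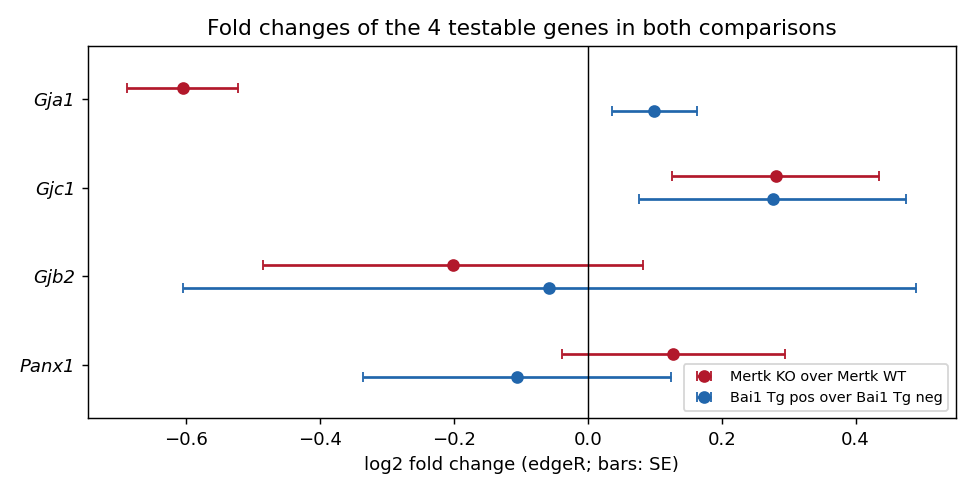
Fitted log2 fold change with its SE for the 4 genes that could be tested, Mertk KO over Mertk WT in red and Bai1 Tg pos over Bai1 Tg neg in blue. Gja1 lies at -0.61 in the Mertk comparison, which chose it, and at 0.10 in the Bai1 comparison, and Gjb2 has the widest bar, an SE of 0.548 in the Bai1 comparison.

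Of the 17 other connexins and pannexins, 2 passed the filter on low counts in the Mertk comparison, Gjb1 and Panx2. Gjb1, a connexin best known from liver and Schwann cells, averaged 3.62 ± 1.2 CPM over the 4 Mertk KO and 1.93 ± 0.986 CPM over the 4 Mertk WT libraries. Its groups overlapped, and its log2 fold change of 0.92 (SE 0.407) did not pass, with an edgeR adjusted p of 0.874. Its mean was 1.75 ± 0.356 CPM over 3 Bai1 Tg pos libraries and 2.26 ± 0.290 CPM over 4 Bai1 Tg neg libraries. Panx2 had a log2 fold change of -0.21 in the Mertk comparison (edgeR adjusted p = 0.963).

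Gap junctions of Cx43 depend on scaffold proteins, kinases that phosphorylate its tail and a short life at the membrane. Lists of such genes were read from the same fits. With the 17 relatives they hold 80 genes, of which 51 were tested in the Mertk comparison, with 24 fold changes above 0 and 27 below and a median log2 fold change of -0.0082, beside -0.00097 over all tested genes. By edgeR 0 passed and 3 had an unadjusted p under 0.05 (Src, Ptprm and Gjb1). By DESeq2 and by limma-voom 0 passed and 2 did so unadjusted (Src and Gjb1). By edgeR 3 of 51 stand beside 750 of 13447 over all tested genes at that cut. In the Bai1 comparison 52 were tested with a median of 0.00082, beside -0.0005 over all genes, and 0 passed by any of the 3 tools. There, 1 had an unadjusted p under 0.05 by edgeR (Akt1), 1 by DESeq2 (Ezr) and 3 by limma-voom (Akt1, Ezr and Dusp1), where all 13855 genes gave 718, 758 and 757 in the same order. Without Bai1 Tg neg 4, chosen after seeing the data, 0 of 52 passed by edgeR, with 2 unadjusted (Akt1 and Itpr1) and 590 of 13562 over all genes.

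Scaffold and adhesion partners were tested for 11 of 15 listed genes in the Mertk comparison, with a median log2 fold change of -0.0082. The most abundant were Ezr, which links membrane proteins to actin, at 0.09 (edgeR adjusted p = 0.914), and Ctnnb1, the beta-catenin of adherens junctions and Wnt signalling, at -0.06 (adjusted p = 0.914). Tjp1, the scaffold ZO-1 that binds the Cx43 tail, is named after its values were seen. Its mean was 90.0 ± 4.52 CPM over the 4 Mertk KO and 91.1 ± 7.22 CPM over the 4 Mertk WT libraries, or -0.02 on the log2 scale (95% interval -0.194 to 0.148, edgeR adjusted p = 0.978).

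Kinases and phosphatases were tested for 15 of 15 genes, with a median of 0.025. The most abundant were Dusp1, a phosphatase of MAP kinases, at -0.06 (edgeR adjusted p = 0.989), and Csnk1d, the casein kinase that phosphorylates Cx43, at 0.01 (adjusted p = 0.994). Src, a tyrosine kinase that phosphorylates Cx43, is named after its values were seen. It was the 1 of 15 tested genes of the list whose Mertk groups did not overlap, beside 3.52% of all 13447 tested genes. Its mean was 177 ± 15.6 CPM over the 4 Mertk KO and 207 ± 4.95 CPM over the 4 Mertk WT libraries, a log2 fold change of -0.23 (SE 0.079) that did not pass (adjusted p = 0.624).

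Trafficking and turnover genes were tested for 11 of 11, with a median of -0.027. Nedd4, a ubiquitin ligase that acts on Cx43, was at -0.03 (edgeR adjusted p = 0.973), and Sqstm1, an autophagy receptor, was at 0.11 (adjusted p = 0.912). Genes of purinergic signalling and calcium waves, which follow ATP release, were tested for 6 of 13, with a median of -0.045. Itpr1, a calcium channel of the endoplasmic reticulum, was at -0.03 (adjusted p = 0.977), and Nt5e, which turns AMP into adenosine, was at -0.14 (adjusted p = 0.915).

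Regulators of Gja1 transcription were tested for 7 of 10 genes, with a median of -0.063. Jun and Fos, partners in the AP-1 factor whose motif stands in the Gja1 window, were the most abundant. Jun averaged 1751 ± 763 CPM over the 4 Mertk KO libraries against 1406 ± 521 CPM over the 4 Mertk WT libraries, or 0.31 on the log2 scale (edgeR adjusted p = 0.930). Fos averaged 719 ± 313 CPM and 807 ± 234 CPM over the same libraries, or -0.17 (adjusted p = 0.959). Fos was higher in value in the Bai1 libraries, with means of 1334 ± 448 CPM over 3 Bai1 Tg pos and 1421 ± 267 CPM over 4 Bai1 Tg neg libraries, and Mertk WT against Bai1 Tg neg gave -0.81 (adjusted p = 0.375).

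**Figure D4:**
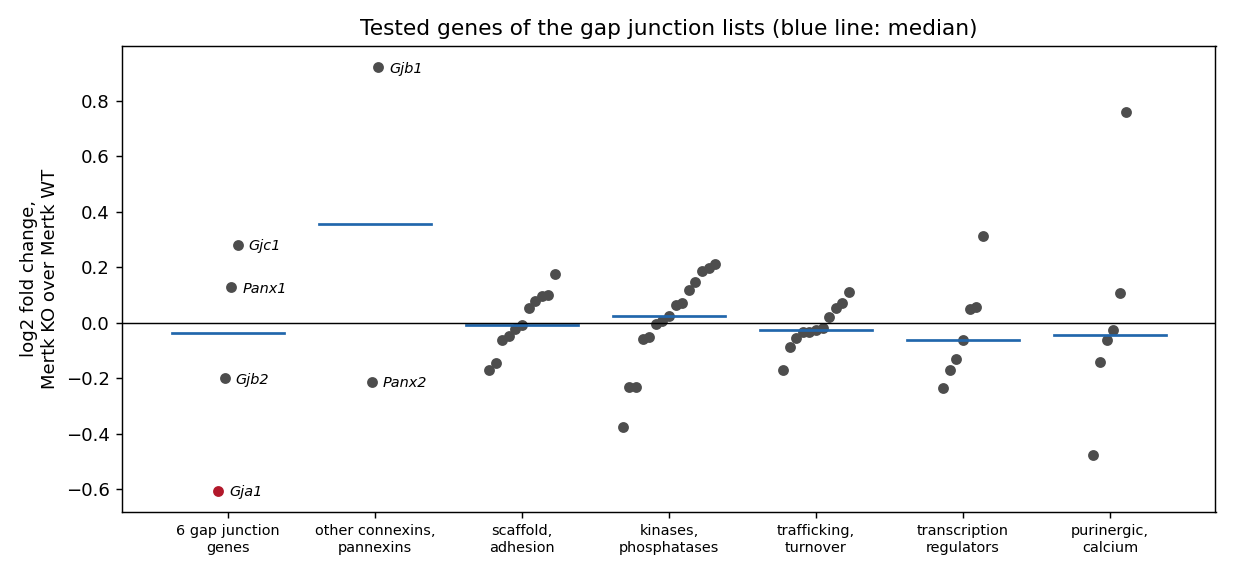
Fitted log2 fold change, Mertk KO over Mertk WT, of each tested gene in the lists of gap junction genes and their partners (points), with the median of each list as a blue line and Gja1 in red. Gja1 lies at -0.61, the fall that chose it, none of the other listed genes passed the threshold, and the medians of the 5 partner lists lie between -0.063 and 0.025.

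The genes whose log2 CPM followed Gja1 most closely were ranked by Pearson's r over the 15 libraries among 14519 genes, as a description. Tmem127, on chromosome 2, had r = 0.969 over all libraries, 0.968 over the 8 Mertk libraries and 0.800 over the 7 Bai1 libraries. Tyro3, a receptor tyrosine kinase of the same family as Mertk and also on chromosome 2, had 0.957, 0.963 and 0.807 in the same order. Slc30a5, a zinc transporter gene on chromosome 13, had 0.945, 0.947 and 0.801. The unnamed gene 2900052N01Rik on chromosome 9 had 0.927, 0.945 and 0.791. Cd300lf, a receptor of myeloid cells on chromosome 11, had 0.918 and 0.957 but 0.151 in the Bai1 libraries, with means of 1.2 CPM over Mertk KO and 5.12 CPM over Mertk WT libraries. The points share their libraries and the gap between Mertk KO and the rest. That gap sets much of the r over 15 and over 8 libraries, and the 7 Bai1 libraries do not hold it. The Bai1 libraries are among the 15 that ranked the genes, so their r is not independent of the ranking.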

How the data were processed

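The authors deposited 1 table of raw counts per gene. Libraries were TruSeq poly-A RNA libraries per the labels' protocols, aligned with STAR to GRCm38 per the submitters' processing notes. Fragment counting by the authors, per the file headers, used featureCounts 1.5.0 with both ends mapped, over exons and with no strand option, and the table also gives the exon length of each gene. Neither a STAR version nor an annotation release is stated there. Symbols matched 45143 genes by identifier, which held 99.9% of the counts. Replicates differed beyond sampling noise (lowest chi-square per degree of freedom 5.03) and each was counted.

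CPM used TMM factors over the 15 libraries. Tests used edgeR 4.0.16 in R 4.3.3 (TMM, filterByExpr, robust quasi-likelihood F test, two-sided, Benjamini-Hochberg, threshold 0.05), each comparison on its own libraries, and the difference between effects on all 15. The SE is the fold change over the square root of F, and the interval its 95% t interval. DESeq2 1.42.0, limma 3.58.1, other scaling and filters, a replicate block, tag terms and leaving out libraries were alternatives. Near-identical copies were sought with blastn 2.17.0. The scripts were tested on simulated data. Genes named were the 6 members, genes of each list past the threshold (up to 4 by smallest p), the 2 most abundant tested genes of each list and of each marker list, Mertk, Adgrb1 and Rpe65, and the 5 genes most like Gja1; others are marked as chosen after their values were seen. The members and lists were chosen with earlier results of these data known. The floor of 3 counts covers counting error only, as fragments carry no molecular identifiers. A few single-gene values are not reported here.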

Additional observations from a re-analysis of the deposited data

How the results depend on the processing

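The log2 fold change of Gja1 between Mertk KO and Mertk WT ran from -0.65 to -0.53 over 16 alternatives. All of them reuse libraries that chose the gene, so its unchanged sign is a description. Gjc1, Gjb2 and Panx1 kept their signs in the Mertk comparison in 16 alternatives each and never passed, with ranges when single libraries were left out of 0.20 to 0.37, -0.31 to -0.061 and 0.046 to 0.22. In the Bai1 comparison Gja1 stayed between 0.056 and 0.14 in 14 alternatives and never passed. Directions that turned were those of Gjb2 in the Bai1 comparison (range when single libraries were left out -0.44 to 0.42, 0.022 without Bai1 Tg neg 4, 0.50 without Bai1 Tg neg 4 and Bai1 Tg pos 1, chosen after seeing the data), Panx1 in the Bai1 comparison (-0.19 to 0.022; 0.011 without Bai1 Tg pos 3) and Gjc1 between Mertk WT and Bai1 Tg neg (-0.24 to 0.0023, the latter without Bai1 Tg neg 2).

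Counts of genes past the threshold moved more, and the cause was not tested. For Mertk KO against Mertk WT the count was 30, with 74 by DESeq2, 69 with no low-count filter, 14 with tag 17 only, which has fewer samples, and 16 (without Mertk KO 4) to 31 (without Mertk WT 2) when single libraries were left out. For the Bai1 comparison it was 2, with 21 by DESeq2, 85 with no filter, 0 with all 15 libraries in 1 fit and 0 by limma-voom, where 718 genes had an unadjusted p under 0.05 by edgeR. It ran from 0 (without Bai1 Tg neg 3) to 54 (without Bai1 Tg pos 3) when single libraries were left out, and was 5 without Bai1 Tg neg 4 and 11 without that library and Bai1 Tg pos 1. For Mertk WT against Bai1 Tg neg it was 58, with 221 by DESeq2, 138 with no filter, 106 by limma-voom, and 13 (without Bai1 Tg neg 1) to 89 (without Mertk WT 4). For the difference between the Mertk and Bai1 effects it was 15, with 81 by DESeq2, 37 with no filter, and 12 (without Bai1 Tg neg 2) to 31 (without Bai1 Tg pos 3).

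The sources used here do not say whether replicate numbers pair the libraries, and so few libraries cannot decide it. Same-numbered Mertk KO and Mertk WT libraries share a first tag number, 17 for numbers 1 to 3 and 21 for number 4. Deviations of same-numbered libraries correlated at -0.086 to 0.207 in the Mertk comparison and 0.0013 to 0.024 in the Bai1 comparison. Between Mertk WT and Bai1 Tg neg they correlated at -0.02 to 0.049. In the same order, 4 of 8, 4 of 7 and 5 of 8 libraries correlated best with their own number. With the replicate number as a block the counts were 24, 4 and 106, and Gja1 was at -0.60 in the Mertk comparison and 0.11 in the Bai1 comparison (edgeR adjusted p = 0.970). Depth leaves Gja4 and Gjb6 untested.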

Other observations

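Genes around Gja1 on chromosome 10 were looked at after its values were seen. Within 5 Mb of the gene 33 others were tested between Mertk KO and Mertk WT, and 0 passed edgeR's threshold, with 3 at an unadjusted p under 0.05. DESeq2 passed 1 of them, Smpdl3a, and limma-voom 0, with 4 unadjusted by each. Their log2 fold changes ran from -0.79 to 0.43 with a median of -0.13, and 22 of 33 were below 0, where 50.3% of all tested genes were. The nearest tested neighbours were Msl3l2, at -0.50 (edgeR adjusted p = 0.890), and Hsf2, at -0.02 (adjusted p = 0.989).

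Bai1 Tg pos 1, the library with the lowest Gjb2 level, also had the highest level of 2 relatives, named after their values were seen. Gja6 was at 2.26 CPM there. Panx2 was at 2.35 CPM there, against a median of 0.655 CPM over the 15 libraries.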
